A study of Rattus norvegicus with 12 samples.

Results

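Calorie restriction was compared with free feeding in the bladder body of old male Fischer 344 rats, across all genes measured. The 8 arrays compared, of 12 in the series, were chosen by their labels: 4 from old rats under restriction and 4 from old rats on normal food. Each array held total RNA of 1 animal. Freely fed animals were 25 to 28 months old and had normal food at all times. Restricted animals were of the same ages, had been fed on 3 days a week since the age of 6 weeks, and took in about 40% less by the labels. The other 4 arrays came from young freely fed rats of 6 months, whose levels are given beside the old groups for some genes. All animals were kept under a cycle of 12 h light and 12 h dark. The hour of tissue collection and the time since the last meal are not given in the sources used here, so phase of the day, phase of the feeding week and intake cannot be told apart in what follows.

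Restriction of food lowers circulating insulin and fat stores, and a feeding schedule is itself a time signal for tissues outside the brain. Peripheral clocks run on a loop in which BMAL1 with CLOCK or NPAS2 switches on genes that carry E-box motifs, among them the Period, Cryptochrome and REV-ERB genes, whose products shut the loop down again. Sterol synthesis is switched on by SREBP2 when membrane cholesterol is low, and INSIG proteins hold that factor back when sterols are plentiful. In an old bladder, resident and infiltrating leukocytes add chemokine, T cell and antigen presentation transcripts to those of muscle, urothelium and connective tissue.

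A level is the log2 fluorescence of a gene relative to the 75th percentile of its array, so 0 marks a gene brighter than 75% of the spots. A change is the restricted minus the freely fed mean on that log2 scale. A gene was called where limma, fitted to all genes and all 12 arrays, gave a Benjamini-Hochberg adjusted p under 0.05, two-sided. Across genes, r was 0.985 to 0.997 between animals within a group and 0.985 to 0.994 between animals of unlike groups. Restricted animals lay on 1 slide, scanned apart, and freely fed old animals in 1 array row of another slide, so slide, scan and diet cannot be told apart. Young animals shared the slide and scan of the freely fed old animals, in its other array row. How near a young level lies to either old group thus cannot be told apart from slide. The 10 spike-in probes, which read the same added RNA on every array, had a median change of 0.085 and a range of -0.05 to 0.12. Negative control spots, which mark background, had log2 levels of -10.45 to -9.97 in freely fed and -9.81 to -9.54 in restricted animals. The SD of their signal was 3.29 to 10.83 in freely fed and 7.82 to 25.85 in restricted animals. Probes above background numbered 23373 to 24644 on freely fed and 22566 to 23200 on restricted arrays. Loss of a gene into background in restricted animals thus cannot be told apart from slide. Freely fed replicate 2 stood apart, at 52.1 on the first principal component of the old arrays (35.9% of the variance) against 2.8 to 16.3 in the other freely fed and -25.2 to -11.2 in the restricted animals, and freely fed replicate 4 stood apart on the second, at 48.6. The detrusor markers Actg2 and Myh11, the urothelial plaque genes Upk1a and Upk3a and the fibroblast marker Dcn lay between 5.13 and 7.04 in all 8 animals, with changes of 0.04 to 0.13, and none was called. Other markers of these tissues were not called either. Krt20 had a change of 0.68, with freely fed replicate 2 at -0.30, and Krt5 one of 0.34 (limma adjusted p = 0.209). Acta2, Des, Cnn1, Upk2, Pdgfra and Lum had changes of -0.03 to 0.14. The gland markers Pbsn, Andpro and Svs5 were not well above background in either old group.

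Of 20418 genes tested, 741 were called (3.63%), 328 of them higher (1.61%) and 413 lower (2.02%) in restricted rats. Of the 20418, 12031 had a gene symbol, as did 467 of the 741 called. The rest were counted by array accession, so a gene may be counted more than once. The split between directions moved with the processing: 44.3% of calls were higher, against 33.2% with cyclic loess scaling and 64% with another background correction (normexp). With normexp and quantile scaling together 42.1% of calls were higher. Among calls of 2-fold or more 115 were lower and 25 higher. Some calls passed the filter through 1 group alone. Of all 413 lower calls 82, and of all 328 higher calls 10, were above background in under 4 animals of the group with the lower level. Calls of 2-fold or more numbered 140 in all, 75 where all 8 arrays had to be above background and 42 under normexp. Many of the lower calls were dim. Among the 5104 dimmest genes 65 were higher and 204 lower, and among the 5105 brightest 69 and 42. Of the 413 lower genes, 45 were well above background in 0 of 4 restricted animals, where only a bound on the fold can be given. All 4 restricted animals lay on one side of all 4 freely fed for 726 of the 741 called genes, and for 2998 of all genes tested (14.7%). The median change over all genes was 0.025, with 57.4% of changes positive and 42.6% negative. By limma with p under 0.05 before adjustment, 2335 of the 20418 were higher and 1871 lower. These are the figures to set beside the list counts below. Over the 12 fits that left out 1 array each, the count higher ranged from 116 to 389 and the count lower from 152 to 460. Both were lowest without restricted replicate 2.

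**Figure D1:**
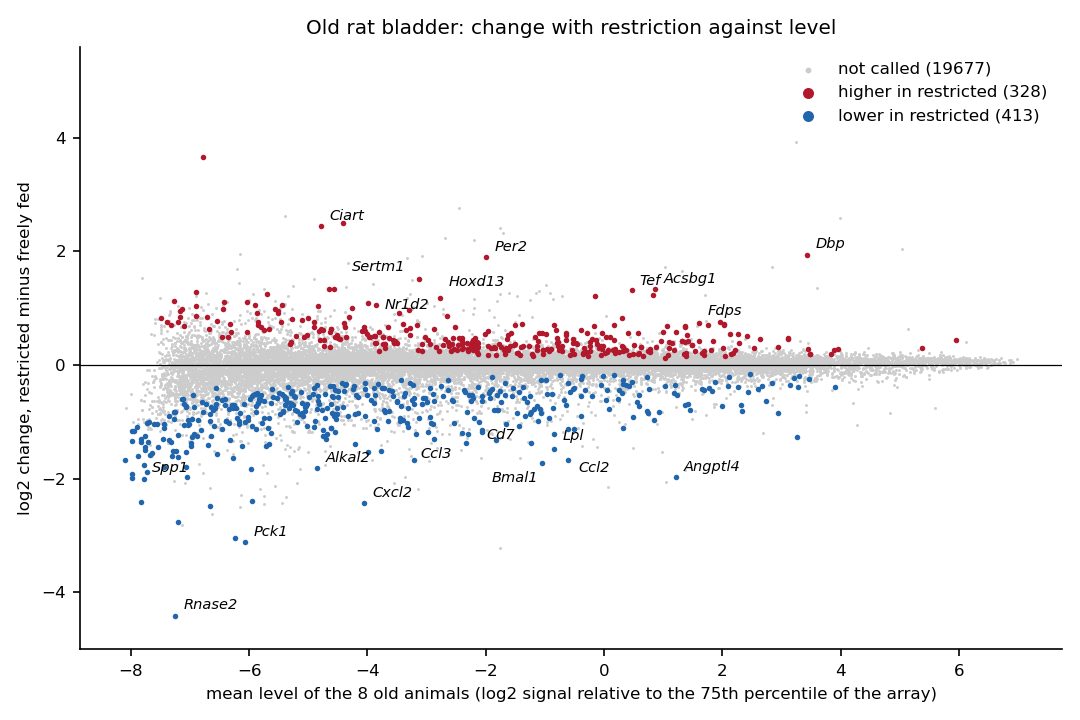
Log2 change (restricted minus freely fed, y axis) against mean level of the 8 old animals (log2 signal relative to the 75th percentile of the array, x axis) for the 20418 genes tested, with the 328 higher calls in red, the 413 lower calls in blue and the rest in grey. Called falls are spread over dim levels at the left, while Ciart, Dbp and Per2 stand highest among the labelled rises and Rnase2 lowest among the falls.

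The circadian clock genes were among the largest rises. Of 14 repressor and output genes of the clock tested, 6 rose and 0 fell, with a median change of 0.41. Per2, a core repressor, lay at -2.53, -2.91, -3.16 and -3.15 in freely fed and at -1.68, -1.21, -0.86 and -0.41 in restricted animals. Every restricted animal was above every freely fed one, a rise of 3.72-fold (log2 1.90, SE 0.23, limma adjusted p = 0.00246), and young animals averaged -2.68 ± 0.18 (SD, n = 4). Dbp, a transcription factor that drives D-box genes and is itself driven by the clock, lay at 3.02, 2.33, 2.20 and 2.29 in freely fed and at 4.01, 4.16, 4.58 and 4.87 in restricted animals. The groups did not overlap, and Dbp rose 3.85-fold (SE 0.29 on the log2 scale, limma adjusted p = 0.00608). Ciart, a repressor of BMAL1-dependent transcription, lay at -5.50, -6.07, -6.18 and -6.28 against -3.71, -4.04, -3.60 and -2.89. It rose 5.44-fold (limma adjusted p = 0.0142), with a change of 1.64 in place of 2.44 under normexp. Tef, a relative of Dbp, rose 2.51-fold and the REV-ERB gene Nr1d2 2.09-fold. Per3 rose 1.28-fold by its brightest probe, and its other 2 probes gave larger changes of 1.10 and 1.21.

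The remaining repressors did not pass. Nr1d1, the other REV-ERB gene, lay at -2.54 to -2.24 in freely fed and -1.28 to -0.97 in restricted animals, with no overlap and a change of 1.25. Its adjusted p was 0.0791 in the fit of all 12 arrays and 0.00185 when the 8 old arrays were fitted alone, since the young animals spread widely (SD 0.98). Per1, Cry1 and Cry2 had changes of 0.11, 0.12 and 0.05 and overlapping groups. Bhlhe40, another repressor, had a change of 0.47 (limma adjusted p = 0.0953). The kinase genes Csnk1e and Csnk1d, which set the stability of clock proteins, had changes of 0.005 and 0.06 and overlapping groups. Wee1, a cell cycle kinase gene that carries E-boxes, was chosen after its values were seen and rose 1.48-fold.

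In the list of the activator arm, which also holds the repressor gene Nfil3, 3 of 5 genes fell and 0 rose, with a median change of -0.83. For all 5 the restricted animals lay below the freely fed ones. Bmal1, the positive partner of CLOCK, lay at -0.42, -0.11, 0.02 and -0.24 in freely fed and at -1.42, -1.39, -2.33 and -2.52 in restricted animals. This was a fall of 3.31-fold (log2 -1.73, SE 0.25, limma adjusted p = 0.00514), and another Bmal1 probe gave -1.64. Restricted replicates 3 and 4 were the lowest, and the same animals were the highest for Per2 and Dbp. Nfil3, which represses the D-box genes that Dbp activates, fell 1.90-fold. Npas2, a stand-in for CLOCK, fell 1.78-fold by its brightest probe, while its second probe gave a change of -0.13 (limma adjusted p = 0.443). Clock (-0.20) and Bmal2 (-0.40) did not pass. Young freely fed animals lay at -0.08 ± 0.30 for Bmal1 and 2.53 ± 0.58 for Dbp (SD, n = 4). Per2, Dbp, Ciart, Tef, Bmal1 and Npas2 were called in all 12 fits that left out 1 array. Nr1d2, Per3 and Nfil3 were called in 6, 6 and 7 of them, and Per3 and Nfil3 did not pass with the 8 old arrays fitted alone.

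**Figure D2:**
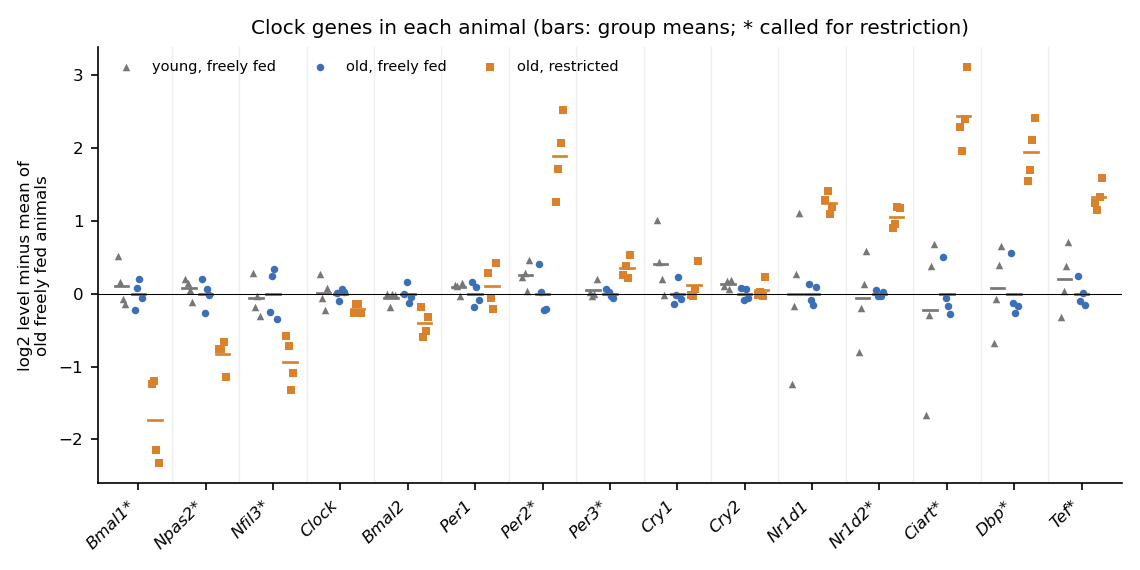
Level of 15 clock genes in each young freely fed (triangles), old freely fed (circles) and old restricted (squares) animal, as log2 level minus the mean of the old freely fed animals, with bars at group means and an asterisk at genes called for restriction. Restricted animals lie below the others for Bmal1 and Npas2 and above the old freely fed ones for Per2, Nr1d1, Nr1d2, Ciart, Dbp and Tef, while Cry1, Cry2 and Per1 overlap.

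Promoter windows from RefSeq (build GRCr8, 250 bases before to 50 after the start) could be read for 11 of the 14 repressor and output genes. They could be read for 5 of 5 genes in the list of the activator arm. The E-box CACGTG, searched on both strands, was found in 3 of the 11 and 0 of the 5, against 6.42% of all promoters of that length. The D-box TTATGTAA was found in 1 of the 11, in Per2, and 0 of the 5, against 0.893% of all promoters. Among the called genes the matches were in Ciart, Tef and Per2. The stretches around them are shown 5′ to 3′ on the gene's strand, with the motif in capitals, because these are the called clock genes whose window holds a motif of the loop described above. Ciart has 3 E-boxes (chr2:186112247-186112359, minus strand), Tef has 1 (chr7:115206609-115206654, plus strand), and Per2 has the D-box (chr9:99497158-99497205, minus strand).
Ciart: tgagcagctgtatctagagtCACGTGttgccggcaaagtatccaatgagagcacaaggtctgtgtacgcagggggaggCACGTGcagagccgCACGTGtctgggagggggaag
Tef: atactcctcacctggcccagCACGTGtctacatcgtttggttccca
Per2: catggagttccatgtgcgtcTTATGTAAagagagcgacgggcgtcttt
A match describes the letters and does not show that a factor binds there.

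Glucocorticoid-responsive genes, which follow the adrenal rhythm and stress, moved unevenly. Of 23 tested 3 rose and 1 fell, with a median change of 0.03. Fkbp5, a brake on the glucocorticoid receptor, lay at -0.25, 0.96, 0.13 and -0.03 in freely fed and at 1.66, 1.91, 0.93 and 1.28 in restricted animals. It rose 2.36-fold (log2 1.24, SE 0.27, limma adjusted p = 0.0319), although the groups overlapped slightly through freely fed replicate 2. Klf9 and Tsc22d3 (GILZ), both direct targets of the receptor, rose 1.61-fold and 1.5-fold. These 3 genes were called in 6, 6 and 8 of the 12 fits that left out 1 array. Zbtb16 (change 1.25, limma adjusted p = 0.0793) and Klf15 (change 0.87, limma adjusted p = 0.0531, and 0.0445 under normexp) did not pass. The member that fell, Angptl4, is described with the fat genes.

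Many genes of sterol synthesis rose in restricted rats. Of 21 tested 13 rose and 0 fell, 20 had a positive change, and the median change was 0.44. Fdps, which makes farnesyl diphosphate, lay at 1.39, 1.07, 1.42 and 1.11 in freely fed and at 1.90, 1.95, 1.99 and 2.11 in restricted animals. That was a rise of 1.67-fold (log2 0.74, SE 0.10, limma adjusted p = 0.00352), with a change of 0.67 by another probe. In the first, mevalonate part of the pathway Acat2 rose 1.35-fold, Hmgcs1 1.46-fold, Mvk 1.33-fold, Pmvk 1.14-fold, Mvd 1.53-fold and Idi1 1.64-fold. In the sterol part Sqle rose 1.49-fold, Lss 1.42-fold, Cyp51 1.53-fold, Msmo1 1.38-fold and Dhcr7, which completes cholesterol, 1.41-fold. The steps were small, and groups did not overlap for 17 of the 21 genes. Fdft1, Tm7sf2, Nsdhl, Hsd17b7, Ebp and Sc5d had changes of 0.16 to 0.45 and did not pass. Ggps1, which leads away from sterols to the prenyl groups of proteins, was the member with a negative change (-0.10) and did not pass.

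The sterol count depended on single animals. It was 7 without freely fed replicate 2, which was the lowest of its group for most of these genes, 8 without restricted replicate 2 and 5 without restricted replicate 4, which was among the highest. The median change was 0.34 without freely fed replicate 2. Fdps, Mvd, Idi1 and Dhcr7 were called in all 12 fits that left out 1 array. Acat2 was called in 2 of the 12, Hmgcs1 in 3, Mvk and Sqle in 6, Msmo1 in 7, Pmvk in 8, and Cyp51 and Lss in 11. Acat2 also did not pass with median centring or cyclic loess scaling. Fdps averaged 1.60 ± 0.15 in young animals (SD, n = 4), between the old groups.

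Regulators of the pathway rose in part, with 4 of 16 genes of sterol regulation higher, 0 lower and a median change of 0.02. Srebf2, which encodes the activator SREBP2, lay at 1.36, 1.29, 1.34 and 1.22 in freely fed and at 1.64, 1.63, 1.73 and 1.65 in restricted animals. The groups did not overlap, and Srebf2 rose 1.28-fold (limma adjusted p = 0.00675). Insig1, which holds SREBP2 back, lay at -1.51 to -1.08 against -0.92 to -0.50 and rose 1.46-fold (limma adjusted p = 0.0168). Scap, its escort protein gene, had a change of 0.003. Genes of sterol export had negative changes and did not pass, with values of -0.27 for Abca1, -0.35 for Apoe and -0.30 for Nr1h3, the LXR alpha gene.

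Fatty acid synthesis shared part of this rise. Of 15 genes 3 rose and 0 fell, 14 had a positive change, and the median change was 0.27. The desaturase gene Scd2 rose 1.66-fold (limma adjusted p = 0.00423), the desaturase gene Fads1 1.40-fold and the mitochondrial citrate carrier gene Slc25a1 1.21-fold. Each was called in all 12 fits that left out 1 array. The synthase gene Fasn (change 0.43, limma adjusted p = 0.0513) and Fads2 (change 0.37, limma adjusted p = 0.0507) lay just outside the threshold. Scd had a change of 0.85 with wide spread and did not pass. Acaca had a change of 0.97 and did not pass, with freely fed replicate 4 at -7.08 and its group mates at -4.47 to -4.27. Restricted animals lay at -4.24 to -3.91 for Acaca, which was well above background in 3 of 4 freely fed animals. Among genes chosen after their values were seen, Aacs, which feeds ketone bodies into lipid synthesis, rose 1.49-fold, the acyl-CoA synthetase gene Acsl3 1.33-fold, the sterol synthesis scaffold gene Erg28 1.26-fold and Tmem97 1.22-fold. Erg28 did not pass under normexp (limma adjusted p = 0.059). Tmem97 was called in 5 of the 12 fits that left out 1 array and did not pass with cyclic loess scaling.

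**Figure D3:**
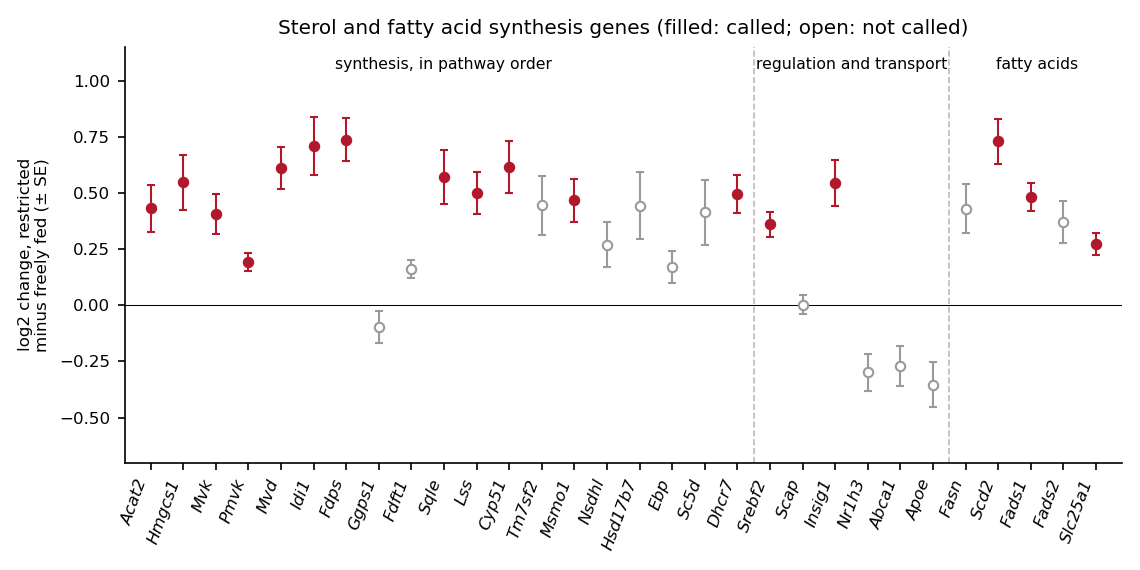
Log2 change, restricted minus freely fed, with its standard error from the fit, for genes of sterol synthesis in pathway order, of sterol regulation and transport, and of fatty acid synthesis; filled points are called and open points are not. Fdps is the highest synthesis gene at 0.74, and the export genes Nr1h3, Abca1 and Apoe lie below 0.

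Promoter windows were found for 16 of the 21 synthesis genes and 11 of the 16 regulators. The CCAAT box, at which NF-Y binds and which commonly lies beside sterol elements, was present on either strand in 13 of the 16 (81.2%) and in 5 of the 11 (45.5%), against 37.5% of all promoters. Of the 10 called synthesis genes with a window 7 held it. The sterol element spelled TCACCCCAC was in 0 of the 16 and 0 of the 11, against 0.484% of all promoters, which says only that these letters are not in these windows. The 3 stretches below show called genes of the mevalonate part, each with a pair of CCAAT boxes in capitals (ATTGG where the box is on the other strand), 5′ to 3′ on the gene's strand. They are Hmgcs1 (chr2:53382096-53382195, plus strand), Idi1 (chr17:66547535-66547610, minus strand) and Fdps (chr2:176804877-176804966, minus strand).
Hmgcs1: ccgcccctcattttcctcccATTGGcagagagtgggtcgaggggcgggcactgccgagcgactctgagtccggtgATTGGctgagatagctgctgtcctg
Idi1: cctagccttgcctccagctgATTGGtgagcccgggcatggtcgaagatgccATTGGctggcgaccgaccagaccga
Fdps: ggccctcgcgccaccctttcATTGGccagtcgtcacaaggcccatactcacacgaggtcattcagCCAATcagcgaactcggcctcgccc

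A few genes of lipid uptake and fat storage fell. Of 19 tested 3 fell and 0 rose, 14 had a negative change, and the median change was -0.44. Lpl, the lipase that frees fatty acids from lipoproteins, lay at -0.26, -0.02, -0.20 and -0.47 in freely fed and at -1.43, -1.52, -1.50 and -1.33 in restricted animals. It fell 2.31-fold (log2 -1.21, SE 0.12, limma adjusted p = 0.00189), the smallest unadjusted p of any named gene (2.83e-07), and young animals lay between at -0.74 ± 0.24 (SD, n = 4). Angptl4, whose product inhibits that lipase and which rises with fasting in many tissues, lay at 1.99, 2.26, 1.99 and 2.53 against 1.04, 0.39, -0.32 and -0.21. It fell 3.91-fold (log2 -1.97, SE 0.28, limma adjusted p = 0.00458), and both genes were called in all 12 fits that left out 1 array. G0s2, an inhibitor of fat breakdown, fell 1.75-fold and the fatty acid carrier gene Cd36 1.36-fold, in 3 and 5 of those 12 fits. The count of 3 was 1 without restricted replicate 2, without freely fed replicates 1, 2 or 4, or without young replicate 2.

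The adipocyte genes within this list were uneven among restricted animals. Adipoq, the adiponectin gene, lay at -0.45, 0.19, -0.38 and 0.03 in freely fed and at -1.73, -6.27, -4.72 and -0.78 in restricted animals. Restricted replicates 2 and 3 were far below the others, and the change of -3.23 did not pass (limma adjusted p = 0.0875). Cidec, a lipid droplet gene, and Aqp7, the glycerol channel gene, were well above background in 4 of 4 freely fed animals and, among restricted ones, in replicates 1 and 4. In bulk tissue, fewer cells of a type and less RNA per cell cannot be told apart. Pck1, a key gene of gluconeogenesis and of glycerol synthesis in fat, had the same pattern, at -4.72, -4.25, -4.63 and -4.44 against -5.44, -9.15, -9.41 and -6.49. It was well above background in 2 of 4 restricted animals and fell 8.66-fold as measured, or 4.99-fold with the dim arrays set to the lowest signal above background (limma adjusted p = 0.0481), a call kept in 1 of the 12 fits that left out 1 array, and its change was -1.11 under normexp. The part of fat cells in these changes was not tested.

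Few other genes of fasting and growth passed. Of 29 genes of fat oxidation and ketone use 1 rose, Bdh1 (ketone body dehydrogenase, 1.28-fold), and 2 fell, Angptl4 and Decr1 (oxidation of unsaturated fats, 1.27-fold). The median change was -0.10. Of 23 genes of glycolysis and gluconeogenesis 1 fell, Pck1, and the median change was -0.06. In the insulin-like growth factor list 1 of 17 fell, the binding protein gene Igfbp4 (1.29-fold), and 0 rose. Igfbp4 was called in 5 of the 12 fits that left out 1 array. Of 31 genes of sirtuins, FoxO, mTOR and autophagy 0 passed, with a median change of 0.04 (6 higher and 2 lower by limma with p under 0.05 before adjustment). Foxo3, a transcription factor of nutrient stress, had a change of 0.34 (limma adjusted p = 0.0695).

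Several chemokine genes fell in restricted rats. Of 32 cytokine and chemokine genes tested 8 fell and 1 rose, 30 had a negative change, and the median change was -0.53 (-0.38 without freely fed replicate 2). Cxcl2, a neutrophil attractant, lay at -1.14, -3.76, -3.08 and -3.40 in freely fed and at -5.72, -5.54, -5.17 and -4.68 in restricted animals. The groups did not overlap, and Cxcl2 fell 5.40-fold (log2 -2.43, SE 0.48, limma adjusted p = 0.0203). Ccl2, the main monocyte attractant, lay at 0.56, -0.26, 0.22 and 0.38 against -1.52, -2.08, -0.61 and -1.56 and fell 3.18-fold (limma adjusted p = 0.012), while young animals lay at -0.68 ± 0.37 (SD, n = 4). Ccl3 fell 2.59-fold, Ccl4 2.63-fold, Cxcl1 2.47-fold, Ccl7 2.50-fold and Ccl6 2.17-fold. All 5 are attractants of monocytes, lymphocytes or neutrophils, and Ccl4 had a change of -0.91 under normexp. Il16, a lymphocyte attractant, fell 1.42-fold, in 1 of the 12 fits that left out 1 array and not under normexp (limma adjusted p = 0.0501). Cxcl14, an epithelial chemokine gene and the brightest of the list at 5.45 to 6.22, rose 1.35-fold, in 3 of the 12. Ccl2, Ccl3 and Cxcl1 were called in all 12 and also with the 8 old arrays fitted alone. In that fit Cxcl2, Ccl4, Ccl6 and Ccl7 did not pass (limma adjusted p of 0.0542 for Cxcl2, 0.0568 for Ccl4 and 0.0699 for Ccl7), and neither did Il16 or Cxcl14. The count of falls was 3 without restricted replicate 2 and 4 without restricted replicates 1 or 4 or freely fed replicate 1.

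Several cytokine genes with large changes did not pass. Il1a had a change of -2.45, with freely fed animals at -6.29 to -2.10 and restricted ones at -7.11 to -6.90 (limma adjusted p = 0.0677). Il1b had a change of -1.16 (limma adjusted p = 0.0986), with no overlap between groups, and Tnf -0.55 with overlap. Ccl5 had a change of -2.06 with freely fed replicate 2 at 4.54 and its group mates at 1.03 to 1.65, and -1.24 (limma adjusted p = 0.0152) without that animal.

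Some T cell genes fell as well. Of 33 T and NK cell markers 6 fell and 0 rose, 31 had a negative change, and the median change was -0.82 (-0.64 without freely fed replicate 2, when 8 fell). Cd7, a surface protein of T and NK cells, lay at -1.35, -1.57, -1.81 and -1.75 in freely fed and at -2.68, -2.52, -2.56 and -2.74 in restricted animals. It fell 2.01-fold (log2 -1.01, SE 0.10, limma adjusted p = 0.00189), and young animals lay at -2.64 ± 0.14 (SD, n = 4), within the range of the restricted group. Il7r, the interleukin 7 receptor gene that T cells need to persist, lay at -4.30 to -3.71 against -5.22 to -4.83 and fell 1.93-fold. Lat and Cd3d, which carry the T cell receptor signal, fell 2.03-fold and 1.64-fold. Cd6, a T cell adhesion receptor, fell 1.71-fold by its brightest probe, while its other 2 probes gave changes of -0.80 and 0.03. Cd7 and Il7r were called in all 12 fits that left out 1 array, Cd3d in 10, Cd6 in 6 and Lat in 5. The count of 6 was 2 without restricted replicates 2 or 4 and 3 without freely fed replicate 1.

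Cytotoxic genes did not pass and stood highest in freely fed replicate 2. Gzmb, a granzyme gene, lay at -3.31, 0.72, -2.78 and -3.10 in freely fed and at -4.76 to -3.17 in restricted animals, and did not pass (limma adjusted p = 0.222). Its change was -1.69 with that animal and -0.74 without it. For Prf1, Nkg7 and Gzma the groups did not overlap, and without that animal their changes were -0.58, -0.82 and -0.79, of which that of Nkg7 passed (limma adjusted p = 0.0262). Pan-leukocyte genes chosen after their values were seen fell, Cd53 by 1.75-fold and Coro1a by 1.78-fold, and Ptprc (CD45) had a change of -0.80 (limma adjusted p = 0.0554). Cd53 was called in 5 and Coro1a in 3 of the 12 fits that left out 1 array.

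Antigen presentation genes fell in part. Of 11 class II genes 3 fell and 0 rose, with a median change of -0.32. RT1-Bb, a beta chain, lay at 2.82, 2.96, 2.52 and 2.38 in freely fed and at 2.06, 1.97, 2.02 and 1.85 in restricted animals and fell 1.62-fold (limma adjusted p = 0.0089). RT1-Da fell 1.62-fold and RT1-Db1 1.56-fold. These are members of a family of close relatives, so probes may read more than 1 gene. The count of 3 was 1 without restricted replicate 2 and 5 without freely fed replicate 4. Of 26 macrophage and dendritic cell markers 1 fell, Spp1 (osteopontin), which was well above background in 4 of 4 freely fed and 0 of 4 restricted animals and at least 1.77-fold lower. Its call ended under normexp, where the change was -0.30 (limma adjusted p = 0.163). Of the 26, 25 had a negative change, with a median of -0.37 (-0.20 without freely fed replicate 2), and 12 were lower and 0 higher by limma with p under 0.05 before adjustment. Cd68, a pan-macrophage marker, had a change of -0.69 (limma adjusted p = 0.14), and Csf1r, Cd163 and Mrc1 had changes of -0.07, -0.17 and 0.02. Of 17 granulocyte and mast cell markers 1 fell, Cxcr2, the neutrophil receptor for CXCL1 and CXCL2, by 2.19-fold and in 5 of the 12 fits that left out 1 array (change -0.40 under normexp). Of the 17, 16 had a negative change, with a median of -0.95 (-0.51 without freely fed replicate 2), and 10 were lower and 0 higher by limma with p under 0.05 before adjustment. Rac2, a leukocyte subunit of NADPH oxidase, was the 1 gene of 10 in its list to fall (1.96-fold), also in 5 of the 12. Of 12 B and plasma cell markers 0 passed, with a median change of -0.50 (1 higher and 4 lower by limma with p under 0.05 before adjustment). The B cell genes Fcrl2 and Spib had changes of -0.75 and -1.19.

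Interferon-induced genes stood high in single animals of both diets. Of 29 interferon-induced genes 0 passed (0 higher and 3 lower by limma with p under 0.05 before adjustment), and the median change was -0.49 with all animals and 0.16 without freely fed replicate 2. Mx1, an antiviral GTPase gene, lay at 0.37, 5.01, 0.17 and 0.06 in freely fed and at 0.21, -0.14, 2.44 and -0.23 in restricted animals. Isg15, a ubiquitin-like antiviral gene, had the same pattern, at 4.61 in freely fed replicate 2, 2.82 in restricted replicate 3 and -1.33 to -0.45 in the other 6. Each diet thus held 1 animal with high levels of both genes. Gbp5 and Psmb9, also interferon-induced, had changes of -1.02 and -0.51. Complement genes (0 of 21 passed; 0 higher and 7 lower by limma with p under 0.05 before adjustment) had a median change of -0.40, and -0.11 without freely fed replicate 2, with C5ar1, a receptor gene, at -0.55 and Cfd at -0.83. Of 22 acute phase and Toll-like receptor genes 0 passed (1 higher and 8 lower by limma with p under 0.05 before adjustment), with a median of -0.20. Sele, an adhesion gene of activated endothelium, had a change of -1.17 and the prostaglandin synthase gene Ptges one of 0.22.

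Blood cell genes were also lower in the median. The 11 blood cell genes tested had a median change of -0.84 (-0.52 without freely fed replicate 2), and 1 fell, Pf4 of platelets by 1.80-fold. The median deviation of these genes from the mean of the old animals was -0.28 to 1.22 in freely fed and -0.75 to -0.27 in restricted animals. Freely fed replicate 2 was the highest old animal for these genes and for T and NK cell markers (1.22 and 0.64). Restricted replicate 3 was the lowest of its group for blood cell genes (-0.75) and the highest for T and NK cell markers (-0.19). Young animals lay at -0.23 to 0.72 for blood cell genes and at -0.885 to -0.353 for T and NK cell markers. Hbb lay at 4.48 to 6.09 against 4.08 to 4.70 and did not pass (change -0.84, limma adjusted p = 0.153). Ranges overlapped, and the part of blood content in the immune results was not tested.

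**Figure D4:**
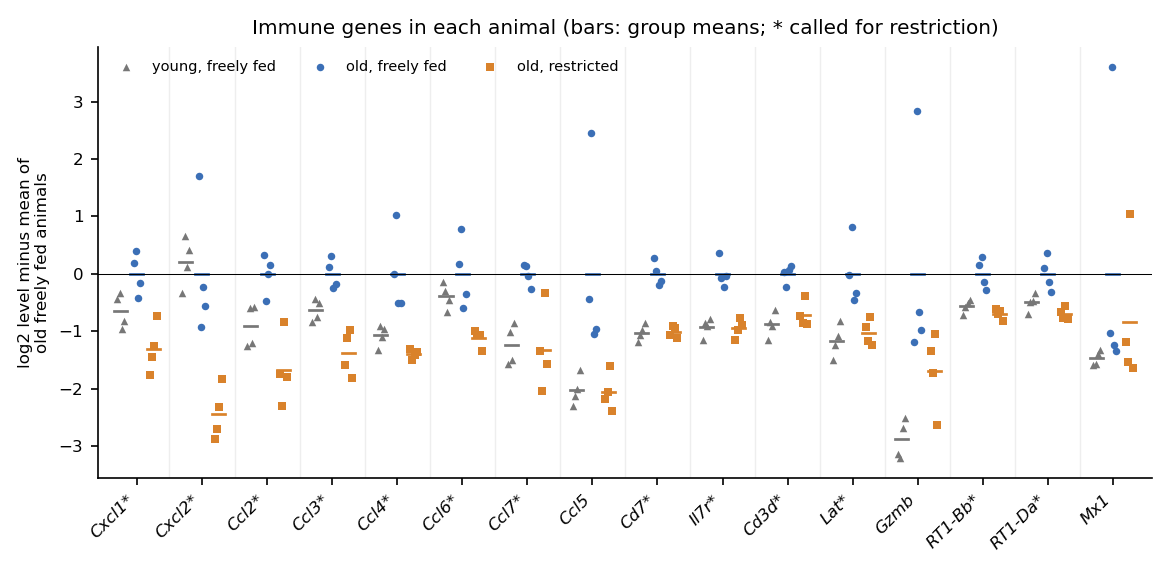
Level of 16 immune genes in each young freely fed (triangles), old freely fed (circles) and old restricted (squares) animal, as log2 level minus the mean of the old freely fed animals, with bars at group means and an asterisk at genes called for restriction. The restricted animals lie below the old freely fed ones for each gene with an asterisk, while Ccl5, Gzmb and Mx1 each have freely fed replicate 2 far above its group.

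A further set of lists held no called gene. Of 34 antioxidant enzymes and NRF2 targets 0 passed, with a median change of 0.05 (3 higher and 1 lower by limma with p under 0.05 before adjustment). Prdx6, a peroxiredoxin gene, had a change of 0.21 with no overlap between groups (limma adjusted p = 0.0673), and Gpx8 one of 0.42. Of 29 smooth muscle genes 0 passed, with a median change of 0.03 (1 higher and 0 lower by limma with p under 0.05 before adjustment), and of 39 urothelial genes 0 passed, with a median of 0.08 (9 higher and 1 lower). Flna and Cacna1c led the muscle list by p, with changes of 0.19 and -0.15, and the epithelial genes Epcam and Krt7 led the urothelial one, with 0.26 and 0.17. Of 20 fibroblast markers 0 passed (1 higher and 5 lower), with a median of -0.06, and Sfrp4 had a change of -1.44 and Ebf1 one of -0.29. Of 32 ribosome and proteasome genes 0 passed (2 higher and 0 lower), with a median of 0.07 and Psmb1 and Psmb4 at 0.12 and 0.09. Of 15 housekeeping genes 0 passed (0 higher and 1 lower), with a median of 0.035 and Pgk1 and B2m at -0.25 and -0.29. Immediate early genes, which respond within minutes to handling and stimulation, had a median change of -0.50 with 0 of 26 passing (0 higher and 12 lower by limma with p under 0.05 before adjustment). Fos lay at 1.83 in freely fed replicate 3 and at -0.34 to 0.04 in its group mates, against -1.66 to -0.29 in restricted animals, and Dusp2 and Ier5 had changes of -0.84 and -0.49. Of 26 cell cycle genes 0 passed (0 higher and 3 lower by limma with p under 0.05 before adjustment), with a median change of -0.48. Their median deviation from the mean of the old animals was 1.11, 0.59, -0.19 and -0.38 in freely fed animals. In restricted animals it was -0.26 to -0.18. Of 22 senescence and p53 genes 0 passed (1 higher and 0 lower), with a median change of -0.02. Birc5 and Kif23, genes of mitosis, had changes of -0.74 and -0.25, and the p53 targets Sesn2 and Btg2 had changes of 0.35 and -0.81.

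**Figure D5:**
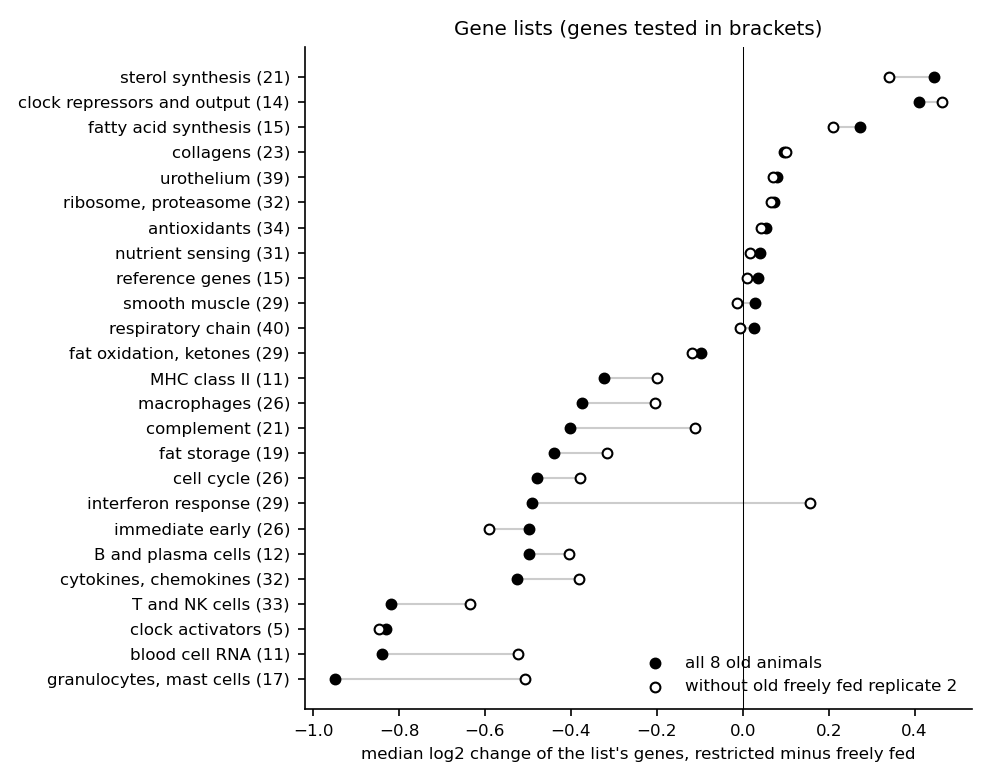
Median log2 change, restricted minus freely fed, of the genes in each of 25 lists (number of genes tested in brackets), with all 8 old animals (filled) and without old freely fed replicate 2 (open). Sterol synthesis and clock repressors lie highest, and the interferon list moves from -0.49 to 0.16 when that animal is left out.

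Some matrix and growth factor genes changed singly. Of 28 genes of elastic fibres, matricellular proteins and proteoglycans 2 rose, Tnc (tenascin C, 1.48-fold, limma adjusted p = 0.0113) and Thbs2 (thrombospondin 2, 1.33-fold), and 1 fell, Spp1. Of 23 collagen genes 1 rose, Col8a1 (1.45-fold), in 4 of the 12 fits that left out 1 array. Of 24 genes of matrix turnover 1 fell, the membrane protease gene Mmp14 (1.28-fold), and the collagenase gene Mmp13 had a change of -1.97 with overlapping groups. Mmp14 was called in 6 of those 12 fits. Of 34 growth signal genes 1 rose and 2 fell: the ligand genes Wnt6 and Wnt7a fell 1.96-fold and 1.42-fold while Wnt2b rose 1.33-fold. Wnt6 was called in all 12 fits that left out 1 array, Wnt2b in 5 and Wnt7a in 3. The Wnt7a groups overlapped and its call was lost with the 8 old arrays fitted alone (limma adjusted p = 0.0836), and that of Wnt2b was lost with median centring (limma adjusted p = 0.0502) and cyclic loess (limma adjusted p = 0.0554). Among genes chosen after their values were seen, the hyaluronan synthase gene Has1 fell 2.32-fold by its brightest probe, and a second probe gave -0.29 (limma adjusted p = 0.529).

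Few receptors and channels of bladder function passed. Of 42 tested 2 rose and 1 fell, with a median change of -0.04. The cation channel gene Trpm4 lay at -2.59 to -2.30 in freely fed and -2.05 to -1.96 in restricted animals and rose 1.35-fold (limma adjusted p = 0.00514). The purinergic receptor gene P2ry1 rose 1.29-fold. Adra1d, the alpha 1D adrenergic receptor gene, lay at -1.03 to -0.57 against -2.0 to -1.33 and fell 1.72-fold (limma adjusted p = 0.0131), below young animals at -0.56 ± 0.05 (SD, n = 4). Trpm4 and Adra1d were called in all 12 fits that left out 1 array and P2ry1 in 6. In the nerve list 1 of 31 genes fell, Alkal2, a ligand of the receptor ALK, which lay at -4.42 to -3.50 against -6.27 to -5.43 and fell 3.51-fold (limma adjusted p = 0.00418), with a change of -1.18 under normexp.

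Some genes of striated and cardiac muscle fell. Of 18 striated muscle genes 2 fell, the cardiac actin gene Actc1 (2.40-fold, called in 1 of the 12 fits that left out 1 array) and the calcium pump gene Atp2a1 (2.26-fold, in 10). Cox6a2, the muscle form of a cytochrome oxidase subunit, was the 1 gene of 40 of the respiratory chain to fall (2.27-fold, limma adjusted p = 0.0153), and Casq2, a calcium-binding protein gene chosen after its values were seen, fell 1.56-fold. Ppp1r3a, a glycogen gene of muscle chosen in the same way, fell 2.47-fold by its brightest probe, and another probe gave -0.06 (limma adjusted p = 0.863). Actg2 and Myh11 of smooth muscle had changes of 0.09 in the same animals. Skeletal muscle markers Ckm, Tnnc2 and Acta1 did not pass, with changes of 0.07, -0.19 and -0.26.

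A few vessel genes fell. Of 22 endothelial and pericyte markers 3 fell and 0 rose: the pericyte regulator gene Rgs5 by 1.5-fold, the endothelial diaphragm gene Plvap by 1.31-fold and Pecam1 (CD31) by 1.29-fold. That count was 0 without restricted replicates 2 or 4 or freely fed replicate 3, and 1 without restricted replicate 1 or freely fed replicate 1. Cdh5 and Kdr had changes of -0.10 and -0.20 and did not pass. Of 37 detoxification genes 3 rose, Ephx1 (epoxide hydrolase, 1.37-fold), Adh7 (retinol dehydrogenase, 1.36-fold) and Gsta3 (glutathione transferase, 1.20-fold), and 1 fell, Gsta2 (2.84-fold). Adh7 and Gsta2 were called in 2 of the 12 fits that left out 1 array, Gsta3 in 3 and Ephx1 in 7. Of 31 genes of stress in the endoplasmic reticulum and heat shock 1 rose. Herpud1, a gene of protein degradation at that organelle, lay at 1.10 to 1.13 in freely fed and 1.46 to 1.64 in restricted animals, a rise of 1.34-fold (limma adjusted p = 0.00195).

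The largest other rises included a pair of homeobox genes of the posterior body. Hoxd13 lay at -3.46, -3.47, -3.34 and -3.15 in freely fed and at -2.17, -2.14, -2.35 and -2.06 in restricted animals, a rise of 2.26-fold (log2 1.18, SE 0.14, limma adjusted p = 0.00195), with young animals at -2.81 ± 0.30 (SD, n = 4). Hoxd12, which passed background in 2 of 4 freely fed animals, rose 1.99-fold, and Hoxd10, chosen after its values were seen, rose 1.48-fold. Acsbg1, an acyl-CoA synthetase gene, lay at 0.67, -0.02, 0.09 and 0.05 against 1.27, 1.69, 1.51 and 1.68 and rose 2.53-fold (limma adjusted p = 0.00189). Sertm1 rose 2.85-fold, Atp2b3 (a calcium pump of the plasma membrane, 1.33 by its brightest and 0.56 by another probe on the log2 scale) 2.52-fold, Aard 2.39-fold, Rprml 2.31-fold, Wdr93 2.15-fold and Ces5a, a carboxylesterase gene, 2.07-fold. Under normexp the changes of Aard, Wdr93 and Hoxd12 were 0.76, 0.63 and 0.46, all still called. Igfbpl1, Agtr1b (an angiotensin receptor gene) and Acss3 (a mitochondrial acyl-CoA synthetase gene) rose by 1.96-fold, 1.94-fold and 1.90-fold. Igfbpl1 and Hoxd10 were each called in 5 of the 12 fits that left out 1 array. The trefoil factor genes Tff3 and Tff1, chosen after their values were seen, rose 2.07-fold and 1.40-fold, in 2 and 4 of the 12 fits that left out 1 array.

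The largest falls were mostly of dim genes. Rnase2, a ribonuclease gene of eosinophils, lay at -4.45, -2.79, -6.15 and -6.80 in freely fed and at -9.58, -9.62, -9.68 and -8.95 in restricted animals, where it was well above background in 0 of 4. It was at least 5.91-fold lower (limma adjusted p = 0.0109), and under normexp it did not pass (limma adjusted p = 0.103). Mest, an imprinted growth gene, fell 2.88-fold, the forkhead gene Foxs1 3.20-fold and Galntl5 3.57-fold, while the homeobox gene Gsc was at least 1.78-fold lower. Slpi, a secreted protease inhibitor gene, was the 1 gene of 9 in the mesothelial list to fall (2.58-fold, in 9 of the 12 fits that left out 1 array). Of 11 genes of the accessory glands 1 rose, Fkbp5, which is shared with the glucocorticoid list. Ly6d was at least 2.70-fold lower, Haao, an enzyme gene of tryptophan breakdown, at least 1.66-fold and Trim10 at least 1.59-fold. Among these largest falls Rnase2, Galntl5 and Gsc were called in all 12 fits that left out 1 array. Mest and Haao were called in 11, Foxs1 in 3, Trim10 in 2 and Ly6d in 1. Mest and Foxs1 were well above background in 4 of 4 animals of each old group. Under normexp Gsc, Ly6d and Haao did not pass either. Genes of receptor families with many close copies were also in this set, where probes may read several genes: Klra17 fell 3.09-fold, Sirpb3 was at least 1.49-fold, Vom1r21 at least 1.53-fold, Or51f1g at least 2.08-fold and Mrgprg at least 2.48-fold lower, and Vom2r54 rose 1.94-fold. Under normexp, which shrinks changes of dim genes, Klra17, Sirpb3, Vom1r21 and Mrgprg did not pass, with changes of -0.53, -0.21, -0.37 and -0.36. The calls of Or51f1g (-0.41), Trim10 (-0.37), Galntl5 (-0.76) and Vom2r54 (0.45) held there with smaller changes.

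The 10 genes with the smallest p-values included some with small, even changes. Acr, the acrosin gene, lay at -4.27 to -4.04 in freely fed and -5.20 to -4.90 in restricted animals and fell 1.86-fold (limma adjusted p = 0.00189). Dclk3, a kinase gene, fell 1.46-fold by its brightest probe, and another probe gave -0.16 (limma adjusted p = 0.823). The olfactory receptor gene Or51i2 rose 1.59-fold. The named genes in all came to 127 called, counting list members and genes chosen after their values were seen. Of these 52 were called in all 12 fits that left out 1 array, and in 0 of them did leaving out 1 array turn the sign or move the log2 change by over 1.5 times. With the 8 old arrays fitted alone 37 of the 127 did not pass. Beside those given above they were Rprml, Igfbpl1, Pck1, Ly6d, Trim10, Klra17, Tsc22d3, Klf9, Fkbp5, Bdh1, Decr1, Cxcr2, Rac2, Gsta3, Adh7, Actc1, Plvap, Rgs5, Pecam1, Slpi, Mvk, Pmvk, Acat2, Lat, Coro1a, Cd53, Casq2 and Tff3.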

How the data were processed

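Bladder body RNA of 12 rats was hybridised to 12 one-colour Agilent rat arrays (design 028279, build rn4 in the file headers), 1 rat per array in 3 groups of 4. The deposited intensity values are processed signals of Agilent Feature Extraction 10.7, per the file headers and the submitters' processing notes, background-subtracted within each array and not scaled between arrays. The deposited series table held the same intensity values (100% of spots equal within 1e-06 of the value).

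Control spots were left out, as were outlier-flagged spots where the probe had others on the array. Flagged spots alone made up 91 averages. Log2 was taken, spots of a probe were averaged (30367 probes) and the 75th percentile of the array's non-control spots was subtracted. Of the probes 17998 (59.3%) were named through their accession in the GRCr8 RefSeq table, which served for names and promoter letters only. The brightest probe stood for a gene, or for an array accession where probes had no gene name. A gene was tested where it was well above background on all 4 arrays of an old group, which a gene high in 1 group passes through that group. limma 3.58 in R 4.3 fitted means of the 3 groups with a brightness trend, Benjamini-Hochberg adjustment over all 20418 genes and a threshold of 0.05. A bound sets dim arrays to the lowest signal above background on the array. The code was tested on simulated data. The number of arrays limits the precision.

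Genes named were the 20 largest rises and 20 largest falls among called genes without overlap between groups, the 10 with the smallest p, and in each of 44 lists up to 5 called genes or, with none called, the 2 with the smallest p. Some genes are not reported here, though counts include them. The members and lists were chosen with earlier results of these data known. The files hold no mean signal column, so normexp used the median signal and median background with an offset of 50. Other settings covered scaling, background correction, the filter, the probe, the arrays fitted and a replicate block. Replicate numbers did not pair animals across diets (correlations of deviations 0.021, -0.127, -0.178 and 0.053), so the block was kept as an alternative.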

Additional observations from a re-analysis of the deposited data

Results flagged for a closer look

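In 16 of 254 groups of 4 animals examined for the named genes, 1 animal stood apart, its gap to the nearest other divided by the group's range passing Dixon's critical value for 4 values. Chance passes it in about 1 of 20 groups. Among old freely fed animals this was replicate 1 for Dbp (0.843), Acsbg1 (0.845) and Galntl5 (0.855), each time the highest level. It was replicate 2 for Klra17 (0.881), Haao (0.864) and Il16 (0.851), where it was highest, and for Wnt6 (0.936), where it was lowest. It was replicate 3 for Sirpb3 (0.833), at -6.80 against -7.14 to -7.08.

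Among restricted animals replicate 4 stood apart for Rnase2 (0.862), Tsc22d3 (0.891) and Adh7 (0.923), where it was highest, and for Atp2a1 (0.903) and Il16 (0.931), where it was lowest. Replicate 3 stood apart as the lowest for Klf9 (0.873), Dhcr7 (0.911) and Mvk (0.878). For Dhcr7 the gap was small in size, at -0.96 against -0.90 in the others. For Klf9 it was larger, at 1.23 against 1.85 to 1.94.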

How the results depend on the processing

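The count of genes higher was 328 in the fit reported, 579 with normexp, 212 with the 8 old arrays fitted alone and 188 with a replicate block. The count lower was 413, with normexp 325 and with the 8 old arrays alone 265. With normexp and quantile scaling 421 were higher and 579 lower. Genes changed by 2-fold or more numbered 140, and 42 with normexp, 41 with normexp and quantile scaling and 75 where all 8 arrays had to be above background. Leaving out 1 array gave 116 to 389 higher, 152 to 460 lower and 77 to 150 of 2-fold or more. The cause of these differences was not tested. The arrays whose absence moved the count higher by over 1.5 times were restricted replicates 1 (209), 2 (116), 3 (187) and 4 (134), freely fed replicates 1 (182), 2 (186) and 3 (167) and young replicate 2 (218). For the count lower they were restricted replicates 2 (152), 3 (267) and 4 (172) and freely fed replicates 1 (200), 2 (260) and 3 (244). For changes of 2-fold or more they were restricted replicates 2 (77) and 4 (84) and freely fed replicate 1 (83). Of 127 called genes named, 63 stayed called under each of the 13 other settings that could test them. The replicate block kept 88 and the 8 old arrays alone kept 90. One gene changed sign, Cd6 by its second brightest probe (0.029, limma adjusted p = 0.884). Signal over background limits the dim falls, 45 of which have a bound in place of a fold.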
